A study of Homo sapiens with 4 samples.

Results

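Knockout cells at day 0 were split by how much of their RNA came from chromosome 20, and the cells with the least were set against the cells with the most. The library held 7275 cells that passed the filters, of 22599 cells in the 4 libraries of the series. The classes were chosen by 59 marker genes of chromosome 20: for each cell the summed unique molecular identifiers (UMIs, each counting 1 captured RNA molecule) of the markers were divided by its UMIs outside mitochondrially encoded and ribosomal protein genes. The 50% of cells with the lowest share formed the low class (3638 cells), the 25% with the highest share the high class (1819 cells), and the 1818 cells between them were left out of the ratios, so that 5457 cells were compared. The comparison asks what else differed between these cells, and it rests on genes that lie on other chromosomes.

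The cells were H9 human embryonic stem cells of line WA09, either carrying a deletion of the deacetylase gene SIRT1 (knockout) or wild type, sampled undifferentiated at day 0 and after 6 days of a protocol towards dopaminergic neurons. Cultures were kept on Geltrex in mTeSR1 and detached with TrypLE, and 3′ transcript ends were counted by droplet sequencing in 1 library for each genotype and day. Which part of SIRT1 was deleted, and whether the knockout is 1 clone, was not given in the sources used here. With 1 library in each group there is no replicate check, no test was made and no p-value is given. The interval after each ratio is an exact 95% interval that covers counting error only, and it compares cells of 1 culture.

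Gain of chromosome 20 material, above all of its long arm near the centromere, is among the recurrent changes of human pluripotent stem cells in culture, and the survival gene BCL2L1 lies in that region. RNA from a chromosome tends to follow its number of copies. Undifferentiated human pluripotent cells are epithelial: they are joined by E-cadherin (CDH1) and by tight junctions that contain claudins. DNA copy number was not measured here, and whether cells of either class had gained or lost copies was not tested. The classes are ranges of an RNA share, not sorted clones.

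The share that chose the classes had a median of 1.08% in the low class and 1.62% in the high class, against 1.69% over the 5533 wild-type cells at day 0. The last cell of the low class and the first cell above it both stood at 1.23%, and the first cell of the high class and the last cell below it both at 1.46%. Within 0.05 percentage points of the lower limit lay 1066 cells and within the same distance of the upper limit 644, so the classes were cut through a continuous range. Of the low class, 95.8% of cells lay below the 1st percentile of wild-type cells (1.22%), and of the high class 0 of 1819 cells did. The spread of the share between cells was 3.33 times the variance of counting in the knockout at day 0 and 4.69 times at day 6, against 1.70 times in wild type at day 0. These ratios depend on depth and were not adjusted for it. The median marker UMIs per cell were 75, 105 and 152 in the same order. All 59 markers were lower in the low class, with a median log2 ratio of -0.57 and a range from -0.93 for the sulfiredoxin gene SRXN1 to -0.12 for the splicing factor gene SRSF6. These values describe how the classes were made and support nothing further.

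The classes were of nearly equal depth. Cells of the low class had a median of 8213 UMIs and 3101 genes, cells of the high class 8354 UMIs and 3062 genes, and wild-type cells at day 0 a median of 12645 UMIs. The summed cells held 34371696 UMIs in the low class, 17978918 in the high class and 73424397 in wild type. Levels are given as counts scaled to 1000000 UMIs (CPM) of these sums. The median mitochondrial share was 4.66% in the low class and 4.99% in the high class, and the 4 libraries shared from 5 to 18 cell barcodes in pairs.

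Genes of chromosome 20 that the rule had not used were also lower in the low class. Of 844 such genes, 215 reached 10 CPM in at least 1 class, and of these 206 had a log2 ratio of low over high class below 0, with a median of -0.39. A smaller limit was used for lists of genes: a level at least 25% higher, or at least 20% lower, than in the high class, with an interval excluding 1. By it 140 of the 215 were lower and 0 were higher, while off chromosome 20 it took in 1.92% of genes as lower and 6.66% as higher. The summed level of the chromosome 20 genes was 0.739 times that of the high class (0.735 to 0.743). In cells taken singly, these genes held a median of 1.22% of UMIs outside mitochondrial and ribosomal protein genes in the low class and 1.69% in the high class, against 1.75% in wild type.

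The shift ran over the whole chromosome. The median log2 ratio was -0.34 for the 62 measured genes of the short arm and -0.42 for the 153 of the long arm. In 7 windows of 10 Mb it lay between -0.32 and -0.46. Against wild type at day 0, the median over the 215 genes was -0.44 in the low class and -0.06 in the high class, which share the wild-type cells as their base. Every other nuclear chromosome had a median between -0.00 (chromosome 19) and 0.10 (chromosomes 4, 13 and 18), and all measured genes off chromosome 20 together had one of 0.06.

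**Figure D1:**
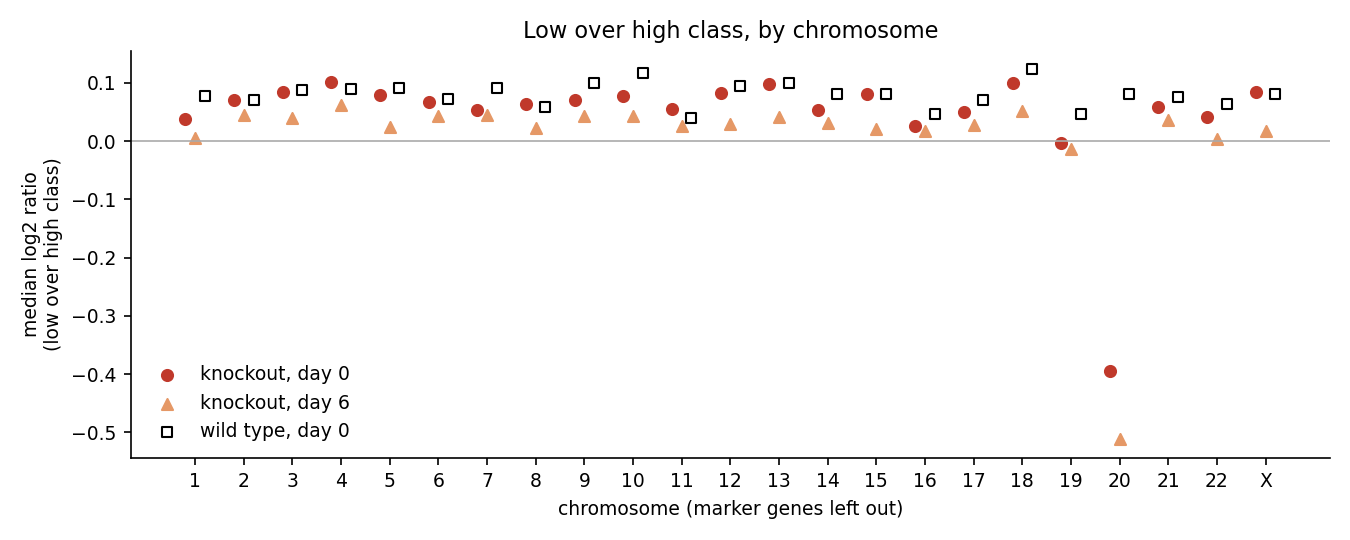
Median log2 ratio of low over high class for the measured genes of each chromosome, with the 59 markers left out, in the knockout at day 0 (circles), the knockout at day 6 (triangles) and wild type at day 0 (squares). In both knockout libraries chromosome 20 stands apart, at -0.39 and -0.51, while in wild type it lies at 0.08 beside the others.

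Because markers and other chromosome 20 genes come from the same cells, the classes were also chosen by the markers of 1 arm and read on the other. Chosen by the 22 short-arm markers, the long-arm markers had a median log2 ratio of -0.30, with 36 of 37 below 0 and a summed level 0.798 times that of the high class (0.793 to 0.804). Chosen by the 37 long-arm markers, all 22 short-arm markers were below 0, with a median of -0.40 and a summed level of 0.765 times (0.757 to 0.773). The same choices in wild-type cells gave medians of -0.02 and -0.07 and summed levels of 0.962 and 0.957 times. Read on the arm that had not chosen the cells, the ratios were further below 0 in the knockout than in wild type; the difference was not tested.

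Over deciles of the knockout cells ordered by marker share, the level of the other chromosome 20 genes was flat, climbed and levelled off. It was 10900, 10881 and 10907 CPM in the first 3 deciles, 11295 CPM in the fifth, 12752 CPM in the seventh, and 15028 and 15191 CPM in the last 2. Wild-type cells ordered the same way held between 16118 and 16695 CPM in every decile. The between class, which holds the climb, was the most varied, with a spread of these genes 4.07 times the variance of counting, against 1.75 times in the low and 2.03 times in the high class.

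**Figure D2:**
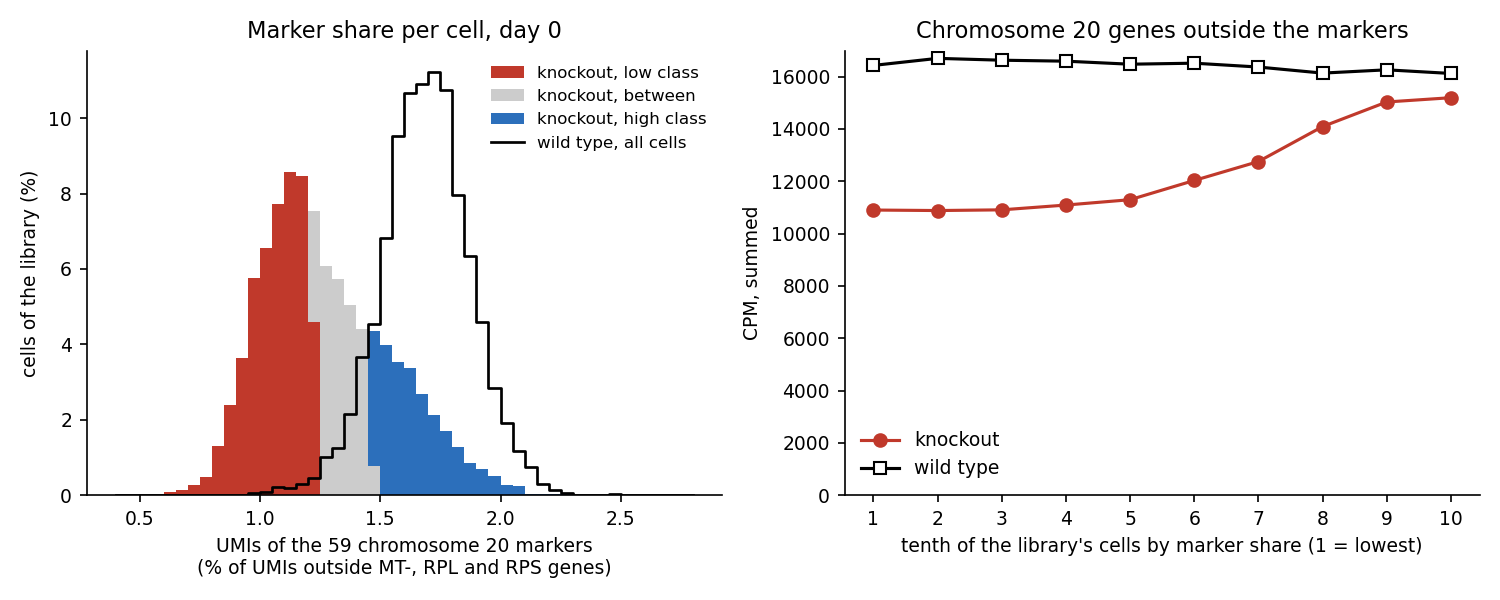
Left, the share of cells (%) by marker share for the knockout at day 0, coloured by class, and for wild type at day 0 (black line). Right, the summed level (CPM) of chromosome 20 genes outside the markers in deciles of the cells ordered by marker share. The knockout steps from about 10900 CPM in its first 3 deciles to 15191 CPM in its last, while wild type stays between 16118 and 16695 CPM.

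Chromosome 20 carries several regulators. Of a list of 24 measured regulators of the chromosome, 15 were lower by the smaller limit and 0 higher, with a median log2 ratio of -0.42, close to the 140 of 215 and -0.39 of the chromosome's genes outside the markers. ID1, which bone morphogenetic proteins induce and which blocks helix-loop-helix factors, had 25.1 CPM in the low class and 51.2 CPM in the high class, against 79.4 CPM in wild type, a log2 ratio of -1.03. The de novo DNA methyltransferase DNMT3B had 227 CPM in the low and 348 CPM in the high class, against 502 CPM in wild type. The anti-apoptotic gene BCL2L1, the proposed driver of long-arm gains, stood at 14.4 CPM in the low and 19.8 CPM in the high class, against 22.6 CPM in wild type, a log2 ratio of -0.46. SALL4, a pluripotency factor, had a log2 ratio of -0.32 and the cell-cycle factor E2F1 one of -0.58. JAG1, a Notch ligand, had 40.2 CPM in the low and 37.4 CPM in the high class and did not follow its neighbours (log2 ratio 0.10).

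The lowest chromosome 20 ratio of low over high class belonged to TRIB3, a pseudokinase induced in the integrated stress response. TRIB3 had 6.52 CPM in the low and 22.2 CPM in the high class, against 20.7 CPM in wild type, so that the low class held 0.293 times the level of the high class (0.248 to 0.346). That is further from 1 than the summed ratio of the chromosome (0.739). WFDC2, an epithelial secreted protein gene, stood at 85.4 CPM in the low and 151 CPM in the high class, also below that ratio at 0.564. At the other end of the measured chromosome 20 genes, the imprinted gene NNAT had 59.6 CPM in the low and 48.2 CPM in the high class, a log2 ratio of 0.31.

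Off chromosome 20, few genes differed. Of 8752 measured genes, 97 were at least 1.5-fold higher in the low class (1.11%) and 35 at least 1.5-fold lower (0.400%), each with an interval excluding 1. By the smaller limit the counts were 583 higher (6.66%) and 168 lower (1.92%). With the median of all these genes set to 0, the counts at 1.5-fold were 70 higher and 48 lower, and by the smaller limit 368 and 258. The share that defines the classes hardly moves the scale, since genes off chromosome 20 held 98.1% of UMIs in the low and 97.3% in the high class.

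The same rule was applied to the other libraries. In the knockout at day 6, of 8456 measured genes 227 were higher (2.68%) and 112 lower (1.32%) at 1.5-fold, and by the smaller limit 721 (8.53%) and 338 (4.00%). In wild type at day 0, of 8757 genes 66 were higher (0.754%) and 2 lower (0.0228%) at 1.5-fold, and by the smaller limit 773 (8.83%) and 43 (0.491%). Genes lower in the low class were thus rare when wild-type cells were split by marker share, whereas genes that were higher were not. Of the 35 lower genes, 15 were measured in the knockout at day 6 and 8 of them were lower there too, which is 53.3% of the 15 and 7.14% of the 112 lower genes of that library. Of the same 35 genes, 34 were measured in the wild-type split, where 0 were lower and 2 were higher. Of the 97 higher genes, 31 of 73 measured were higher in the knockout at day 6 and 7 of 74 in wild type. Whether these shares differ was not tested.

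Junction genes of epithelial cells were among the lower genes, and CLDN7 and MARVELD3 were 2 of the 12 lowest ratios. CLDN7 (ENSG00000181885, chromosome 17, 7259903 to 7263983 on the minus strand of GRCh38), a tight-junction claudin, had 618 UMIs in the low class and 1041 in the smaller high class. That is 18.0 CPM in the low and 57.9 CPM in the high class, against 73.1 CPM in wild type, or 3.22-fold lower in the low class (2.91 to 3.56). MARVELD3, another tight-junction membrane protein, had 13.8 CPM in the low and 26.1 CPM in the high class, against 26.7 CPM in wild type. CDH1 (ENSG00000039068, chromosome 16, 68737225 to 68835548 on the plus strand) had 50.6 CPM in the low and 85.3 CPM in the high class, against 91.0 CPM in wild type, 1.69-fold lower (1.57 to 1.81). For MARVELD3 and CDH1 the high class lay close to wild type, with log2 ratios to it of -0.03 and -0.09, while for CLDN7 the high class was also below wild type (-0.34). In the split of wild type at day 0 the log2 ratios of CLDN7, MARVELD3 and CDH1 were -0.27, -0.20 and 0.21. In the knockout at day 6 none of these 3 genes reached 10 CPM: CLDN7 had 0.181 CPM in the low and 1.40 CPM in the high class, MARVELD3 0.241 CPM and 1.09 CPM, and CDH1 0.694 CPM and 3.96 CPM.

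A list of 35 epithelial junction and polarity genes off chromosome 20 was put together after such values had been seen, so its count describes and supports nothing. Of its 27 measured members 7 were lower by the smaller limit and 0 higher, and the median log2 ratio was -0.13, against 0.06 for all genes. Besides the 3 genes above, the lower members were MAL2 (log2 ratio -0.75), the adhesion protein gene EPCAM (-0.34), the epithelial splicing regulator ESRP1 (-0.33) and the serine protease gene PRSS8 (-0.37). The keratins KRT8 and KRT18 had log2 ratios of -0.09 and -0.22 and passed neither limit.

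The promoter of CLDN7 is shown because E-boxes with the letters CACCTG, or CAGGTG on the other strand, are known binding sequences of ZEB1 and the SNAI factors, repressors of epithelial genes. RefSeq (GRCh38.p14) gives 2 start sites for CLDN7, and each window runs from 250 bases before the start to 50 after it. The first, chr17:7262429-7262728 on the minus strand, is printed with the E-box letters in capitals.
CLDN7 start 1: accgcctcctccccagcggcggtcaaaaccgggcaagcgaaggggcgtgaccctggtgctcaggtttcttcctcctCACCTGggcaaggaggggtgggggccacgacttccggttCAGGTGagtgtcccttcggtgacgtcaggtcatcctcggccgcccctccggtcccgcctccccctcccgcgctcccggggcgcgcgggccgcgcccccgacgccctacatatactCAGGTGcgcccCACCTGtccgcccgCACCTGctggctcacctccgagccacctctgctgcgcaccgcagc
The first window held 5 matches, whose first bases lie at -174, -135, -20, -9 and 6 relative to the start. The second window, chr17:7263164-7263463 on the minus strand, held 0 and is not printed. At least 1 match was found in 20.6% of the 35116 RefSeq windows of the same length, and 5 or more in 33 of them. A match is a run of letters, and binding was not measured. The sequences used held no window for CDH1, MARVELD3 and EPCAM.

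Genes of mesenchymal and migratory cells stood higher in the low class. ZEB1 itself, a repressor of CDH1, had 401 UMIs in the low and 95 in the high class, or 11.7 CPM and 5.28 CPM, against 4.33 CPM in wild type, 2.21-fold higher in the low class (1.76 to 2.79). Vimentin (VIM, chromosome 10, 17228259 to 17237593), an intermediate filament gene, had 567 CPM in the low and 328 CPM in the high class, against 241 CPM in wild type, 1.73-fold higher (1.68 to 1.78). RND3, whose product loosens actin fibres, had 56.0 CPM in the low and 23.7 CPM in the high class, against 17.6 CPM in wild type, 2.36-fold higher (2.13 to 2.63). N-cadherin (CDH2) had a log2 ratio of 0.57 and cadherin 11 (CDH11) one of 1.09. Of 10 measured genes of the mesenchymal and matrix list, 4 were higher (FN1, TGFBI, COL1A2 and VIM) and 2 lower, the secreted matrix protein gene CCN2 and TAGLN, with a median of 0.21. That list held 1 higher and 2 lower of 9 measured members in the knockout at day 6, and 4 higher and 0 lower of 10 in wild type. Of all measured genes off chromosome 20, 6.66% were higher in the knockout at day 0 and 8.83% in wild type. Of another mesenchymal list, made after the values were seen, 7 of 14 measured members off chromosome 20 were higher and 0 lower, with a median of 0.34.

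Part of that direction was also found in wild-type cells split by marker share, where 4 of 12 measured members of the list made later were higher. The log2 ratio there was 0.93 for ZEB1, 0.38 for VIM and 0.07 for RND3, beside 0.21 for CDH1 and -0.27 for CLDN7. In the knockout at day 6, 4 of 15 members of that list were higher and 1 lower. The log2 ratios of ZEB1, VIM and RND3 were then 0.07, -0.19 and 0.40. Whether ZEB1 acted on junction genes was not tested. Fibronectin (FN1) had 49.8 CPM in the low and 30.9 CPM in the high class, a log2 ratio of 0.69, but 74.5% of its UMIs in the low class came from the 1% of cells richest in it, and 60.8% in the high class. Without the 5% of cells richest in markers of other lineages, the log2 ratio was 0.08 for FN1, 1.27 for ZEB1, 0.83 for VIM and -0.78 for CDH1. TAGLN, a smooth-muscle actin-binding gene of the same kind, went the other way, with 11.1 CPM in the low and 17.6 CPM in the high class. Its log2 ratio of -0.66 became -0.09 among cells with 8000 UMIs or more.

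Several neuronal and axon genes were among the higher genes. NTS, the precursor of the peptide neurotensin, had the highest ratio among the genes that reached 20 CPM in either class, with 40.5 CPM in the low and 13.1 CPM in the high class, against 27.7 CPM in wild type, 3.08-fold higher in the low class (2.68 to 3.55). NTS is also a marker of the mesoderm list, whose summed share was 0.00752% in the low and 0.00418% in the high class. TNIK, a kinase of the Wnt pathway, had 20.7 CPM in the low and 7.95 CPM in the high class, against 17.6 CPM in wild type. MAPK10, the neuronal JNK kinase gene, had 20.6 CPM in the low and 8.90 CPM in the high class, against 11.3 CPM in wild type. NTS lay on either side of wild type, with log2 ratios to it of 0.55 in the low and -1.07 in the high class. Of the UMIs of NTS, 20.1% in the low and 30.9% in the high class came from the 1% of cells richest in it. In the wild-type split its log2 ratio of low over high class was -0.50. TNIK was further from wild type in the high class (-1.14) than in the low class (0.24). The axon guidance gene SEMA3A, the teneurin TENM3, the protocadherin PCDH11X and the neurofilament NEFM had log2 ratios of 1.29, 0.85, 1.02 and 0.80. Of 6 measured members of the neural progenitor list, 2 were higher by the smaller limit, MAP2 and PTN. OTX2 was lower, with a log2 ratio of -0.40. In the wild-type split 4 of 6 measured members of that list were higher and 0 lower.

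SORBS2 (chromosome 4, 185585444 to 185956652), an adaptor of the actin cytoskeleton, differed in both comparisons. It had 94.8 CPM in the low and 45.7 CPM in the high class, against 16.0 CPM in wild type, so that the low class was 2.08-fold higher than the high class (1.92 to 2.24) and the high class was itself above wild type. A list of 25 neuronal and axon genes made after the values were seen had 13 of 21 measured members higher and 0 lower, with a median of 0.69. In the knockout at day 6, 13 of 19 were higher and 3 lower, with a median of 0.82, and in wild type at day 0, 6 of 20 were higher and 1 lower, with a median of 0.29. The calcium channel gene ITPR2 (58.0 CPM in the low and 26.2 CPM in the high class) and the kinase gene MAP3K13 (52.6 CPM and 27.1 CPM) followed, as did the microfibril gene FBN2, KLHL4 and LINC00672, each between 1.81-fold and 1.90-fold higher.

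**Figure D3:**
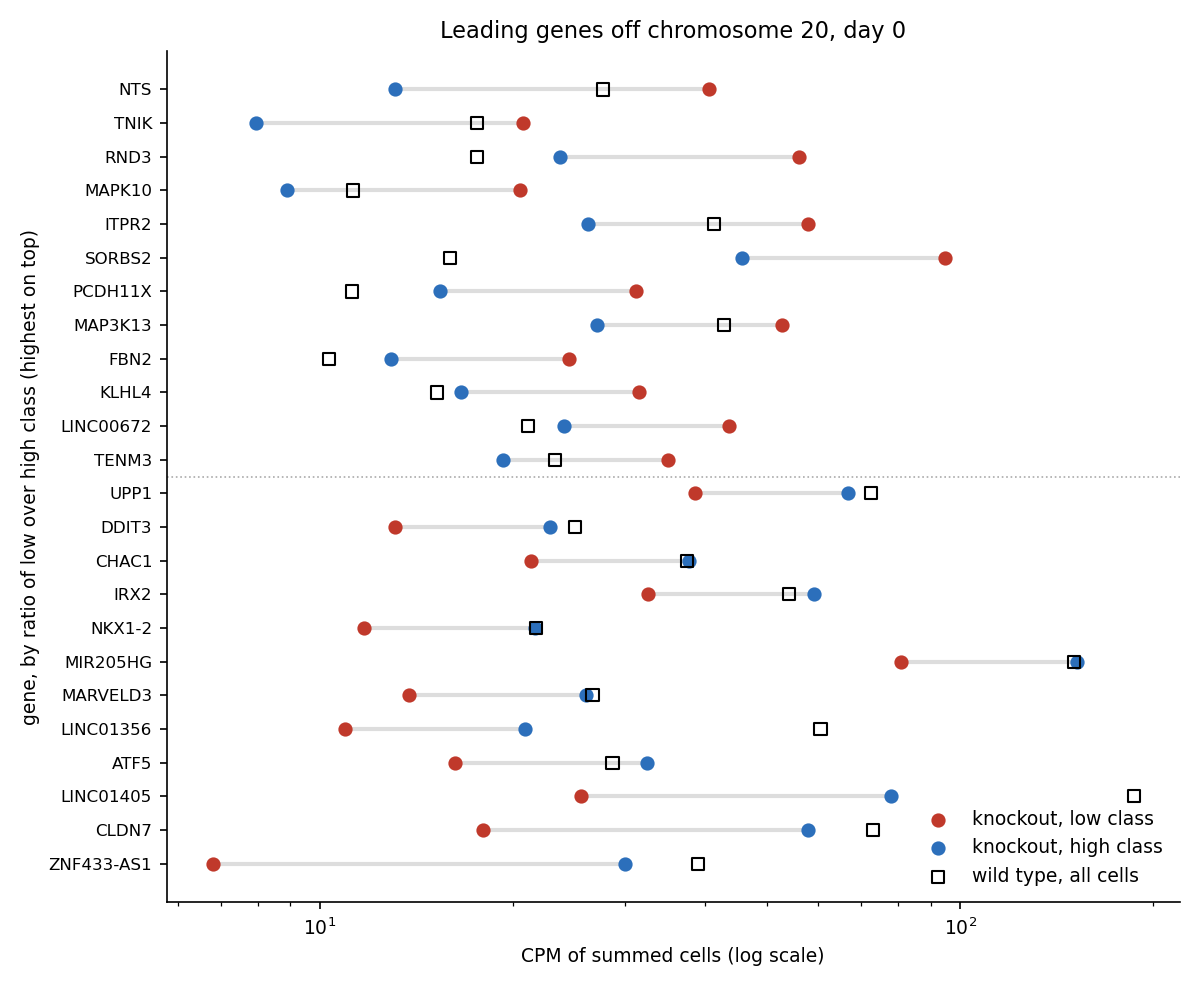
Levels (CPM of summed cells, log axis) of the 12 genes with the highest and the 12 with the lowest ratio of low over high class among genes off chromosome 20 at 20 CPM or more, in the low class (red), the high class (blue) and all wild-type cells at day 0 (squares). For most genes among the lower 12, such as MARVELD3 and NKX1-2, the high class lies on or near wild type.

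Several RNAs without a protein product were among the lowest ratios. ZNF433-AS1 (chromosome 19, 11987617 to 12046275 on the plus strand) had 6.81 CPM in the low and 29.9 CPM in the high class, against 39.0 CPM in wild type, 4.40-fold lower in the low class (3.76 to 5.15), the lowest ratio among the genes that reached 20 CPM in either class. Its name marks it as an antisense RNA of ZNF433. Reads of an overlapping partner cannot be told apart from it without strand, and whether strand was used in counting was not given in the sources used here. LINC01405 had 25.6 CPM in the low and 78.1 CPM in the high class, against 187 CPM in wild type and LINC01356 had a log2 ratio of -0.93, with 60.5 CPM in wild type. Of the UMIs of LINC01356, 49.3% in the low and 42.0% in the high class came from the 1% of cells richest in it, and its log2 ratio was -0.38 with short-arm markers alone. For both RNAs the high class was also below wild type. MIR205HG, the host transcript of an epithelial microRNA, had 80.9 CPM in the low and 152 CPM in the high class, against 150 CPM in wild type. The homeobox genes NKX1-2 and IRX2 had log2 ratios of -0.89 and -0.86, and in the split of wild-type cells IRX2 had one of 0.61.

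Genes of the integrated stress response, which the factors ATF4 and CHOP drive when protein synthesis or amino acid supply is disturbed, were lower in the low class. Of 15 measured members off chromosome 20, 7 were lower by the smaller limit and 0 higher, against 1.92% and 6.66% of all such genes. All 15 had a log2 ratio below 0, and the median was -0.31, against 0.06 for all genes. ATF5, a factor translated under stress, had 16.2 CPM in the low and 32.5 CPM in the high class, against 28.6 CPM in wild type. CHAC1, a glutathione-degrading enzyme gene, had 21.4 CPM in the low and 37.8 CPM in the high class, against 37.5 CPM in wild type, 1.77-fold lower (1.59 to 1.96). DDIT3, which encodes CHOP, had 13.1 CPM in the low and 22.9 CPM in the high class, against 25.1 CPM in wild type, a log2 ratio of -0.80. PSAT1 of serine synthesis, the amino acid transporter SLC7A5, DDIT4 and SESN2 had log2 ratios of -0.46, -0.48, -0.37 and -0.33.

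The members on chromosome 20, TRIB3 and CEBPB, had log2 ratios of -1.77 and -0.78 and are left out of that count. In the knockout at day 6 the list held 1 higher and 4 lower of 13 measured members, with a median of -0.05, and in wild type at day 0 it held 0 higher and 1 lower of 15, with a median of -0.14. CHAC1 itself had a log2 ratio of -0.42 in the wild-type split. The 5′ window of CHAC1 is printed because the letters TGATGNAA, or TTNCATCA on the other strand, are the composite C/EBP-ATF element through which ATF4 and CHOP are known to act. The window is chr15:40953221-40953520 on the plus strand (RefSeq, GRCh38.p14), with the element in capitals.
CHAC1: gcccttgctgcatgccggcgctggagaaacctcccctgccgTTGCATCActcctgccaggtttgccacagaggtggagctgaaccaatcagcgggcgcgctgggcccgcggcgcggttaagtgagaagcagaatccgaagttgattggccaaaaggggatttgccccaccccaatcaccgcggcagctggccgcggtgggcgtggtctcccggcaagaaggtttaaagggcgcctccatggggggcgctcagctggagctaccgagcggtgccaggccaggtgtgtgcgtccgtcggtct
It held 1 match, from -209 relative to the start, and 3.62% of the RefSeq windows held at least 1.

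**Figure D4:**
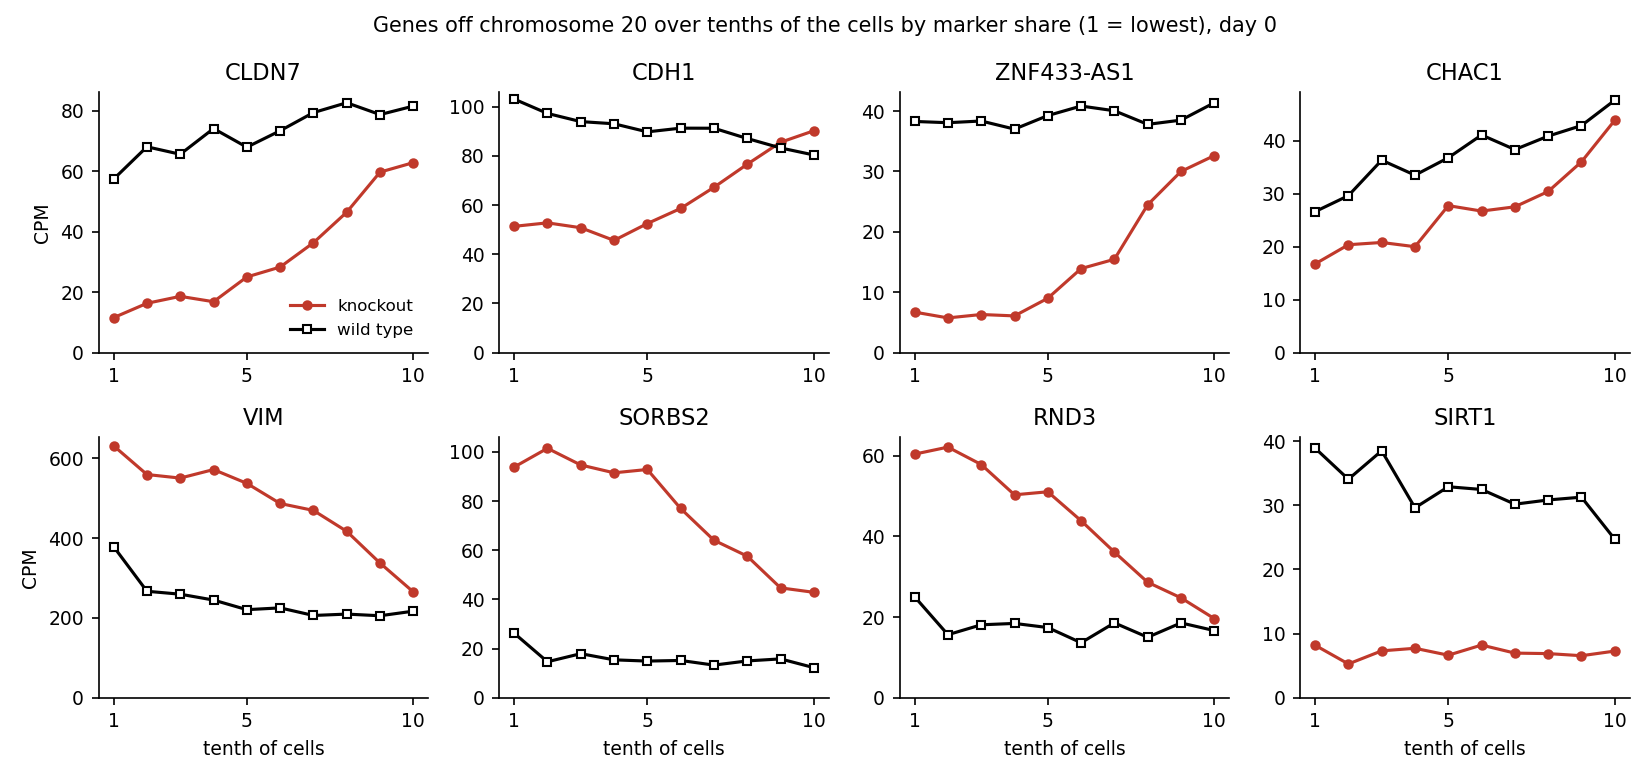
Levels (CPM) of 8 genes off chromosome 20 in deciles of the day 0 cells ordered by marker share (1 is the lowest), in the knockout (filled circles) and in wild type (open squares). In the knockout CLDN7 goes with the share between 11.5 CPM in the first decile and 62.9 CPM in the last, VIM and RND3 go against it, and SIRT1 stays between 5.28 and 8.22 CPM.

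Levels of single genes along the share were as follows. ZNF433-AS1 stayed between 5.73 and 6.69 CPM in the first 4 deciles of the knockout cells and reached 30.0 and 32.6 CPM in the last 2. CDH1 was between 45.6 and 52.8 CPM in the first 5 deciles and reached 90.3 CPM in the last, where wild-type cells of the same rank had 80.4 CPM. In wild type CDH1 ran the other way, with 103 CPM in the first decile. SORBS2 was between 91.5 and 101 CPM in the first 5 deciles of the knockout cells and 42.9 CPM in the last, and between 12.3 and 26.3 CPM over the deciles of wild type. VIM and RND3 ended at 265 and 19.6 CPM in the last decile of the knockout, against 217 and 16.7 CPM in the last decile of wild type.

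Cholesterol synthesis genes were moderately higher in the low class. Of 21 measured members 10 were higher by the smaller limit and 0 lower, with a median log2 ratio of 0.27. STARD4, a sterol carrier, had a log2 ratio of 0.65 and 21.1 CPM in wild type, INSIG1, which retains sterol sensors, 45.9 CPM and 29.5 CPM, against 18.6 CPM, and the synthase HMGCS1 116 CPM and 78.6 CPM, against 54.3 CPM. Wild type was lowest for all 3 genes, and the high class lay between it and the low class. In the wild-type split 2 of 21 members were higher, beside 8.83% of all measured genes off chromosome 20. In the knockout at day 0 the smaller limit took in 6.66% of such genes as higher and 1.92% as lower. Of 12 fatty acid synthesis genes 3 were higher and 0 lower (median 0.25), namely ACSL3, ACSL4 and ELOVL6. With classes chosen by short-arm markers alone, 5 cholesterol and 0 fatty acid genes were higher. With the median of all genes set to 0, 6 of the 21 cholesterol and 1 of the 12 fatty acid genes were higher.

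Hypoxia-response genes were higher than wild type in both classes and higher still in the low class. Of 18 measured members 7 were higher in the low than in the high class and 1 lower, with a median log2 ratio of 0.27. The median log2 ratio to wild type was 1.01 in the low and 0.70 in the high class. The prolyl hydroxylase gene EGLN1 had a log2 ratio of 0.65 between the classes. Its log2 ratios to wild type were 1.34 in the low and 0.69 in the high class. INSIG2 had 51.7 CPM in the low and 32.1 CPM in the high class, against 16.4 CPM in wild type. STC2 was the lower member, with a log2 ratio of -0.54. In the wild-type split 10 of 16 members were higher, against 8.83% of all measured genes off chromosome 20. This list thus moved with marker share in wild-type cells too. In the knockout at day 0 the shares over all such genes were 6.66% higher and 1.92% lower. Of 22 glycolysis genes 5 were higher and 0 lower (median 0.15), or 0 with classes chosen by short-arm markers alone, among them PGK1 at 624 CPM in the low and 470 CPM in the high class, against 299 CPM in wild type, and PFKFB4 at 27.0 CPM and 19.6 CPM, against 7.97 CPM.

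G2 and M phase genes were higher in the low class in each of the 3 libraries split, while S phase genes in the knockout at day 0 were not. Of 51 G2 and M phase genes off chromosome 20, 11 were higher in the low class of the knockout at day 0 (median 0.24), 41 at day 6 (0.54) and 31 in the wild-type split (0.38), with 0 lower in each. Among all measured genes off chromosome 20 the shares higher were 6.66%, 8.53% and 8.83%. The count of higher G2 and M phase genes at day 0 was 0 with classes chosen by short-arm markers alone and 3 with all UMIs in the share. It was 19 with long-arm markers alone and 29 with the lowest 25% of cells as the low class. The summed share of UMIs of the G2 and M phase genes was 0.651% in the low and 0.562% in the high class of the knockout. When classes were taken within 10 equal strata of that share, a choice made after seeing the data, 1 of the 51 genes was higher and 1 lower. The counts at 1.5-fold were then 89 higher and 42 lower genes, of which 82 and 33 were among the 97 and 35. Of 38 S phase genes 0 were higher or lower. CLDN7, CDH1, ZEB1 and VIM had log2 ratios of -1.60, -0.73, 0.97 and 0.82 within these strata.

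**Figure D5:**
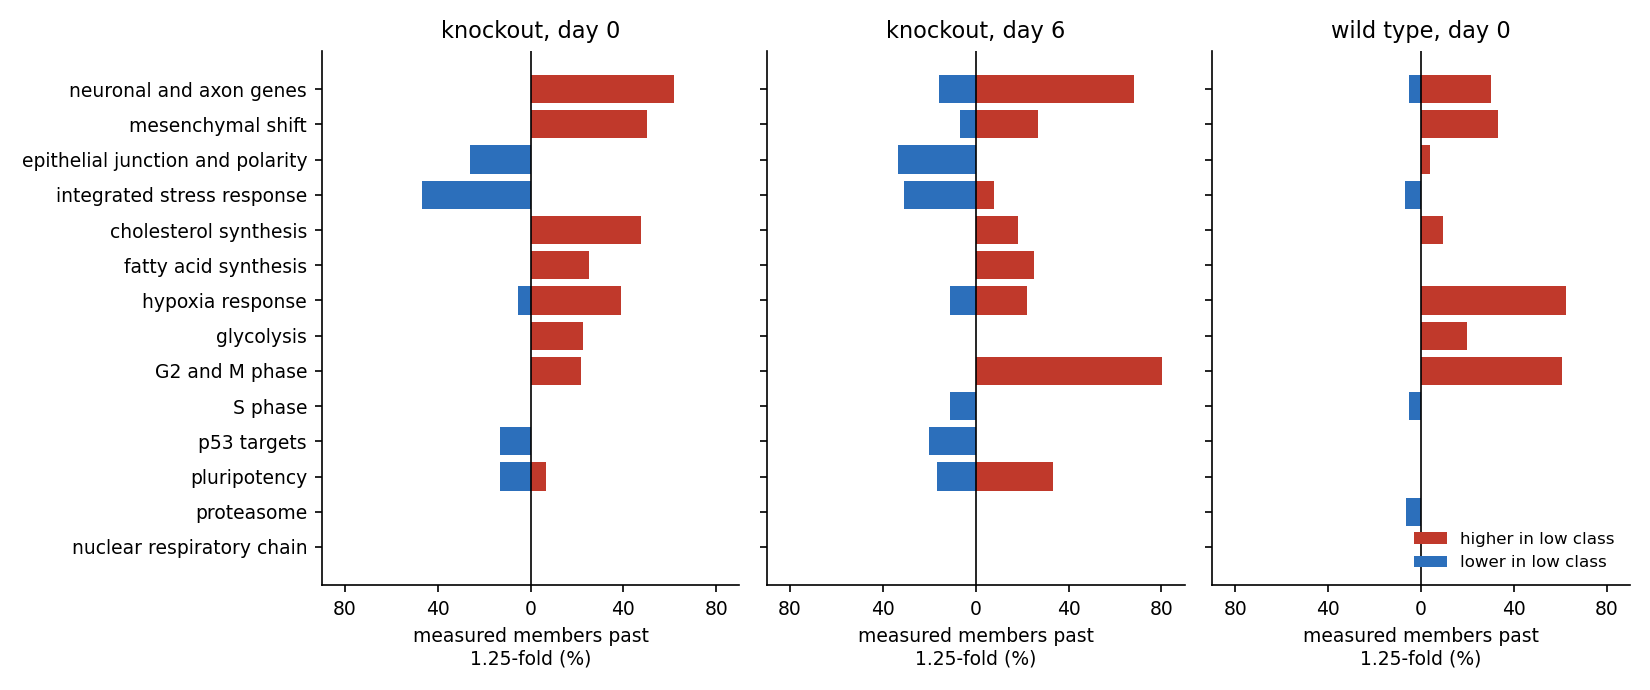
Percent of the measured members of 14 gene lists off chromosome 20 that were higher (red, right of 0) or lower (blue, left of 0) by the smaller limit in the low class, in the knockout at day 0, the knockout at day 6 and wild type at day 0. The junction, mesenchymal and neuronal lists were made after the values were seen, so their bars describe and support nothing. Integrated stress response genes have more lower than higher members in all 3 libraries, though in wild type only 1 is lower and 0 higher. G2 and M phase and hypoxia genes have more higher than lower members in all 3.

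Genes whose protein partners are encoded on chromosome 20 showed no shift at this size. The marker PSMA7, a proteasome subunit, had 565 CPM in the low and 887 CPM in the high class, and the markers PSMF1 and ADRM1 had log2 ratios of -0.67 and -0.57. Of 31 proteasome genes on other chromosomes, 0 were higher or lower by the smaller limit, and their median was -0.01. That limit took in 6.66% of all measured genes off chromosome 20 as higher and 1.92% as lower. The spliceosomal genes SNRPB and SNRPB2 had log2 ratios of -0.50 and -0.57, and 0 of 18 Sm and snRNP genes elsewhere passed the limit (median 0.02). ATP5F1E of the ATP synthase had 389 CPM in the low and 590 CPM in the high class, and 0 of 14 other ATP synthase genes passed (median 0.06). Of 57 nuclear respiratory chain genes and 13 mitochondrially encoded genes likewise 0 passed, with medians of 0.04 and -0.02. These markers were part of the rule, so only the genes elsewhere were open to differ.

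Pluripotency factors were close between the classes. POU5F1 had 936 CPM in the low and 879 CPM in the high class, against 838 CPM in wild type, and SOX2 and NANOG had log2 ratios of 0.02 and 0.16. Of 15 measured members off chromosome 20, 2 were lower by the smaller limit, the NODAL co-receptor gene TDGF1 (-0.53) and UTF1 (-0.48). Of 23 measured p53 target genes 3 were lower, PHLDA3, GDF15 and SESN2, and 0 higher (median -0.10). Off chromosome 20 as a whole, 1.92% of measured genes were lower and 6.66% higher. For PHLDA3 and GDF15 the high class was above wild type, with log2 ratios of 0.43 and 0.53, and the low class near it, at -0.05 and 0.15.

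Markers of other cell types were sparse in both classes. Summed shares in the low and the high class were 0.0430% and 0.0373% for 15 neural progenitor markers, 0.0935% and 0.0657% for 19 mesenchymal and matrix markers, and 0.000623% and 0.000606% for 8 endoderm markers off chromosome 20. Keratins and other surface ectoderm markers summed to 0.0837% in the low and 0.0964% in the high class. GATA4, GATA6, TTR, TP63 and KRT5 had 0 UMIs in the low class, and GATA2, SOX17, TTR, TP63, GATA3 and KRT5 had 0 in the high class. Of the 364 cells richest in these markers, 188 were in the low class (5.17% of it) and 69 in the high class (3.79% of it). Without them the counts at 1.5-fold were 100 higher and 36 lower genes. Without these cells the log2 ratio was -1.74 for CLDN7 and 1.22 for CDH11. For PTN it went from 0.39 to 0.62, and for TAGLN from -0.66 to -0.43. Why these ratios moved, and the part of these cells in genes that are not named, was not tested.

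For the targeted gene no difference between the classes was called. SIRT1 had 241 UMIs in the low and 116 in the high class, or 7.01 CPM and 6.45 CPM, against 32.3 CPM in wild type, and its ratio of low over high class was 1.09 (0.867 to 1.37). Both levels lay below 10 CPM, the limit for a measured gene. Its log2 ratio of low over high class was 0.12, with 0.48 among cells with 8000 UMIs or more and -0.09 as a mean of cell CPM. In the wild-type split it was 0.35. The log2 ratio of SIRT1 to wild type was -2.20 in the low and -2.32 in the high class. APLN, which encodes the peptide hormone apelin, had 33.1 CPM in the low and 31.7 CPM in the high class, against 6.55 CPM in wild type, with log2 ratios to wild type of 2.34 and 2.28. SLFN13, a schlafen family gene, had 9.75 CPM in the low and 3.34 CPM in the high class, against 22.5 CPM in wild type, and thus was further from wild type in the high class. S100A6 had 0.407 CPM and 0.667 CPM, against 17.3 CPM in wild type. MT1H had 7 UMIs in the low and 51 in the high class, all of them in 1% of the cells of each class. Metallothionein genes are near-identical copies, and their counts are uncertain.

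Set against wild type at day 0, the genes that differed between the classes fell into several patterns. Of the 97 genes higher in the low class, 55 were at least 1.5-fold higher than wild type in the low class, while in the high class 66 were neither higher nor lower than wild type, 17 were lower and 14 higher. Of all 8752 measured genes off chromosome 20, 2.63% were higher and 1.52% lower than wild type in the low class, and 0.891% higher and 1.15% lower in the high class. Of the 35 genes lower in the low class, 27 were lower than wild type in the low class, while 27 were neither in the high class. Both comparisons use the same wild-type cells, and the classes were picked for being unlike each other. With 1 library for each genotype, the genotype and the culture cannot be told apart.

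Free RNA stood above the level in the cells of 1 or both classes for several genes. In barcodes with 1 to 50 UMIs of the same library, which hold RNA free in the suspension, CLDN7 stood at 44.0 CPM, above the 18.0 CPM of the low class, and CDH1 at 56.6 CPM. Free RNA was also above the low class for ZNF433-AS1 (16.8 CPM), CHAC1 (26.2 CPM), MARVELD3 (15.9 CPM) and SIRT1 (15.9 CPM). For SIRT1 it was above the high class too. It lay above the high class but below the low class for SLFN13 (7.02 CPM), VIM (460 CPM), RND3 (45.4 CPM), NTS (23.9 CPM) and SORBS2 (48.6 CPM). The part of free RNA in these levels was not tested. With that profile subtracted at 5% of the UMIs of each class, 120 genes were higher and 39 lower at 1.5-fold.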

How the data were processed

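The deposited files hold raw UMI counts per gene and barcode for 1 library of each genotype and day. Per the submitters' processing notes they were made with Cell Ranger 6.1.2 on GRCh38, while the file header names Cell Ranger 4. The sources used here give no annotation version, and positions were taken from GENCODE 29 by Ensembl ID. Cells with at least 4000 UMIs, at least 1000 genes and at most 20% mitochondrial UMIs were kept. Doublets were not removed, and an alternative leaves out the deepest 5% of cells. Counts were summed over the cells of each class and scaled to CPM of all UMIs. A gene was measured at 10 CPM or more in 1 of the classes. Ratios have exact (Clopper-Pearson) 95% intervals, conditional on the total, which cover counting error only. A gene was called at 1.5-fold, or within lists at 25% higher or 20% lower, where the interval excluded 1. Scripts were tested on simulated data. The genes named off chromosome 20 were the 12 highest and 12 lowest ratios at 20 CPM or more, SIRT1, up to 3 members of each list and genes reported before as class dependent. Other genes named, among them those of the 3 added lists, were chosen after their values were seen. The members and lists were chosen with earlier results of these data known. Python 3.11.15, numpy 2.4.6, scipy 1.17.1, pandas 2.3.3 and matplotlib 3.10.9 were used. A result for 1 member of the pluripotency list is not reported here.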

Additional observations from a re-analysis of the deposited data

Results flagged for a closer look

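Of the named genes that differed by 1.5-fold between the classes of the knockout at day 0, 4 differed the other way, by the smaller limit, in another library, and in each case the difference between libraries was not tested. FN1 had a log2 ratio of low over high class of 0.69 in the knockout at day 0 and of -1.38 in the knockout at day 6. IRX2 had one of -0.86 in the knockout at day 0, against 0.61 in wild type. TAGLN had one of -0.66 in the knockout at day 0, against 0.34 in wild type. NTS had one of 1.62 in the knockout at day 0, against -0.50 in wild type. By the smaller limit, 168 genes off chromosome 20 were lower and 583 higher in the knockout at day 0. Of these, 160 and 509 were measured in wild type, where 14 and 2 differed the other way. Over all measured genes off chromosome 20 of the wild-type split, 8.83% were higher and 0.491% lower. In the knockout at day 6, 6 of 102 measured lower and 9 of 497 measured higher genes differed the other way. Over all such genes of that library, 8.53% were higher and 4.00% lower.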

How the results depend on the processing

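No paired analysis was possible because each group has 1 library. Against 583 higher and 168 lower genes by the smaller limit, 97 and 35 at 1.5-fold, and a chromosome 20 median of -0.39, the values that moved were as follows, and the cause was not tested. A limit of 20 CPM gave 331 and, at 1.5-fold, 54 higher genes, and no gene filter 1361 and 576, 599 and 351, and -0.37. Short-arm markers alone gave 229 higher, 37 higher and 15 lower at 1.5-fold, and -0.30, and long-arm markers alone -0.34. All UMIs in the share gave 361 higher and -0.41, and a share thinned to 4000 UMIs 60 and 22 at 1.5-fold and -0.31. The lowest 25% of cells gave 1003 and, at 1.5-fold, 177 higher genes and -0.42. The median set to 0 gave 368 and 258 and -0.45. Scaling outside mitochondrial and ribosomal protein genes gave 274 and, at 1.5-fold, 59 lower genes and -0.42. The chromosome 20 median was -0.37 at 8000 UMIs and within depth strata, -0.42 with free RNA subtracted and as a mean of cell CPM, and -0.41 without the deepest 5% of cells and within G2 and M strata, a choice made after seeing the data. For 66 of the named genes off chromosome 20, 1056 values were recomputed, of which 920 lay within the interval of the main setting and 135 outside it. With short-arm markers alone, CLDN7, ZNF433-AS1 and NTS had log2 ratios of -1.20, -1.37 and 0.89, against -1.69, -2.13 and 1.62. Among the named genes whose classes differed, 1 changed direction: FN1 had -0.32 with all UMIs in the share. SIRT1, APLN and S100A6, whose intervals held 1, changed sign under some settings.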
